A study of Mus musculus with 10 samples.

Results

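The 35 genes described here encode the enzymes of glycolysis and the citrate cycle, with lactate dehydrogenase, the pyruvate dehydrogenase complex, pyruvate carboxylase and cytosolic or NADP-dependent counterparts of cycle enzymes. They were chosen by name from the pathway, with no measured value in the rule but with earlier results of these data known. All 35 were found among the 12160 genes with a value. Of these, 34 were listed under the name given, and the muscle-type pyruvate kinase, given as Pkm2, was listed under its current symbol Pkm. Messenger RNA was measured, and neither enzyme amount nor flux. Of the members, Pfkp and Ldha rose in tuft cells, and the other 33 did not pass the test.

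The study sorted epithelial cells from the pancreas of wild type male CD1 mice in which pancreatitis had been induced with caerulein, an analogue of the hormone cholecystokinin that injures acinar cells. Both groups were Cd45-neg and EpCAM+, which gates against leukocytes, and they were divided by the surface lectin Siglec F, with 5 libraries of Siglec F+ tuft cells and 5 of Siglec F-neg non-tuft epithelial cells. Each tuft library held 100 cells from an individual mouse and was made by Smart-Seq2, a full-length method for low input. The strain is given as CD1 in the protocol and as Mixed in the sample records, ages are not given, and every library of either group came from an injured pancreas, so no uninjured pancreas enters the comparison. The labels do not say whether a tuft and a non-tuft library with the same number came from the same mouse.

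Glycolysis converts glucose to pyruvate in the cytosol and yields a little ATP without oxygen. Lactate dehydrogenase turns pyruvate into lactate and regenerates the NAD that glycolysis consumes, whereas pyruvate dehydrogenase passes pyruvate on to the mitochondrial citrate cycle as acetyl-CoA. Several steps are catalysed by isozymes from separate genes, which differ in regulation and in tissue of expression, and the acinar cells that make up most of the exocrine pancreas rely on mitochondrial ATP for the synthesis and secretion of digestive enzymes.

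Values are log2(RPKM + 1), where RPKM divides the reads of a gene by its transcript length and by the size of the library, so levels of different genes are compared per length. A difference is tuft minus non-tuft on that scale. The authors quantile normalized the libraries after the logarithm, which gives each the same distribution of values. Summed RPKM, and shares of it, were computed by undoing the logarithm of these normalized values, so they are not RPKM as measured. Since 1 is added before the logarithm, differences of weakly expressed genes are understated. The number of reads behind each library is unknown. A gene "passed" with an adjusted p under 0.05 in limma, two-sided and adjusted by Benjamini-Hochberg over all 12160 genes, and was "called" where the fold change was also over 4. The p-values measure the spread between these 5 and 5 libraries.

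Tuft and acinar markers differed between the groups in the direction of the labels. All 21 listed tuft cell markers rose in tuft cells, and their summed RPKM was 5530 to 14500 in tuft libraries and 2.88 to 741 in non-tuft libraries. They include Siglecf, which encodes the protein used for the sort, so its rise was set by the design. Of 8 eosinophil markers, only Siglecf was listed. Of 31 listed acinar markers, 25 fell, with a summed RPKM of 2430 to 140000 in tuft libraries and 169000 to 218000 in non-tuft libraries, so acinar transcripts remained in the tuft libraries in unequal amounts. Of the other marker lists, 7 of 15 proliferation genes, 4 of 16 islet markers and 2 of 11 dissociation response genes fell, 3 of 14 ductal markers rose and 3 fell, 1 of 10 leukocyte markers rose (Ptprc, which encodes Cd45), and none of 8 fibroblast and endothelial markers passed. In non-tuft libraries 1, 2 and 5 the tuft marker Dclk1 stood at 6.84, 8.46 and 7.14, against 2.88 and 0.00 in libraries 3 and 4. Non-tuft library 2 had 3753 genes at its lowest value of 0.17, the most of the 10 libraries, and 7 of the 35 members were among them. In bulk libraries, fewer cells of a type and less RNA per cell cannot be told apart.

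Among the 35 members, 2 passed and both rose in tuft cells. Both were also called. Over all genes, 11.7% passed (6.19% higher and 5.55% lower in tuft cells), and 8.31% were called. The member differences ran from -1.62 to 3.32 with a median of -0.02, beside a median of 0.02 over all genes, and 16 were positive and 19 negative. In 4 members, 3 of them higher in tuft cells, no tuft value fell within the non-tuft range, as was so for 11.4% of all genes. For 4 members the 95% interval of the difference lay within 1 log2 unit of 0 and for 24 within 2, and for the remaining members the interval reached past a 4-fold difference. As an alternative scaling, each library was centred on its ribosomal protein genes. The mean of these genes was lower in tuft libraries (6.56 to 7.69) than in non-tuft libraries (7.70 to 8.18). Centring therefore raised the difference of every gene by the same amount. The median difference of all genes moved from 0.02 to 0.84. The share of passed genes that were higher in tuft cells went from 52.7% to 88.9%, and 5 members passed, all higher. Relative to that shift the member median was again -0.04 from the median of all genes. The plot of all members by library shows where these differences lie along the pathway.

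**Figure D1:**
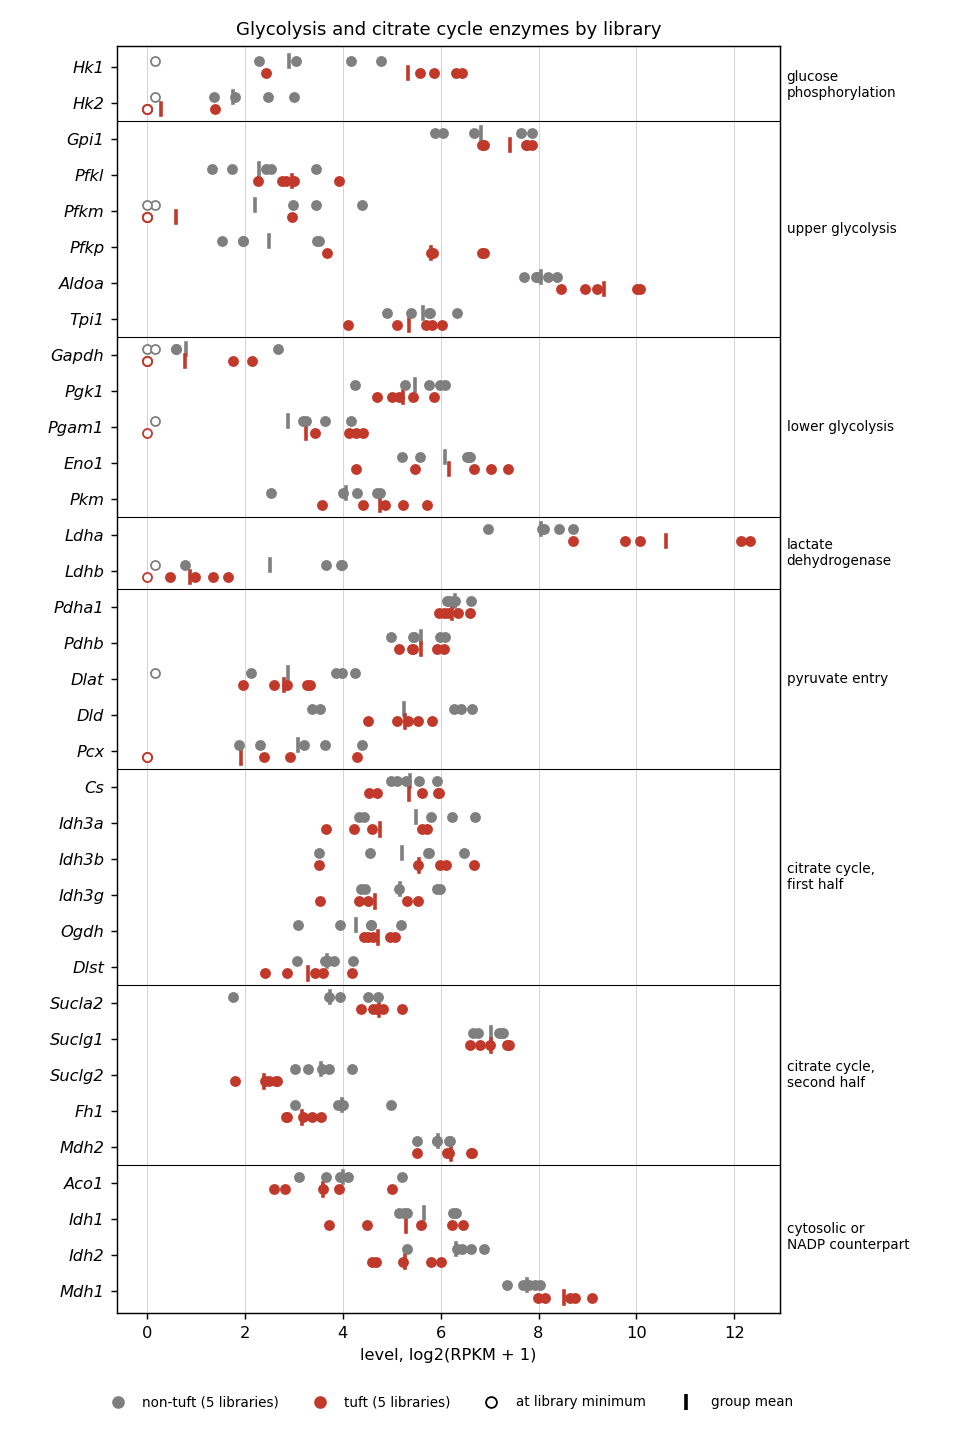
Each point is the level of 1 gene in 1 library on the log2(RPKM + 1) scale, for 5 non-tuft (grey) and 5 tuft (red) libraries, with group means as vertical ticks and open points where a gene stood at the lowest value of its library. Pfkp, Aldoa and Ldha lie higher and Suclg2 lower in tuft cells with no overlap, and Ldha and Aldoa have the highest means in both groups.

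Because Pfkp and Ldha carry the main difference, the 250 bases before their annotated starts are shown (RefSeq, GRCm38.p6, 5′ to 3′ on the strand of the gene). Capitals mark ACGTG or its reverse complement CACGT, which is 1 form of the hypoxia response element core and lies within the E-box CACGTG. The other form of the hypoxia core, GCGTG, was not searched for or marked. The motif was chosen after the values were seen. The Ldha window is chr7:46845554-46845803 on the plus strand, and the Pfkp window is chr13:6648772-6649021 on the minus strand.
Ldha: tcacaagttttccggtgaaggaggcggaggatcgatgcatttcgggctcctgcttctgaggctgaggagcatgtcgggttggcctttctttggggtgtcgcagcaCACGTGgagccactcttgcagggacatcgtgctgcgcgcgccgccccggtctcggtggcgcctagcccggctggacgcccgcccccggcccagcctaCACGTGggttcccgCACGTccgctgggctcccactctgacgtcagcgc
Pfkp: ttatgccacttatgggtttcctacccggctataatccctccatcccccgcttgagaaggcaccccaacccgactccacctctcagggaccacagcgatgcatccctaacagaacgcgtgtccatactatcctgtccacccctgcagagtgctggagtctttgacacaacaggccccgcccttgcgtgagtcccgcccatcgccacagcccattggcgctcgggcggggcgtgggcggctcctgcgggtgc
The Ldha window held 3 separate places with a match, 2 of which read CACGTG and so match on both strands. The Pfkp window and the window of a second annotated Ldha start (chr7:46846832-46847081) held no ACGTG or CACGT. The Pfkp window does contain the unmarked form GCGTG, so it is not shown to lack the hypoxia core. Several windows can belong to 1 gene, and Ogdh alone had 6 with a match. By gene, 12 of 34 members (35.3%) had a window with a match, as did 24.8% of 9112 listed genes and 18.5% of all 27025 genes. By window, the shares were 37.3% of 51 member windows, 21.3% of 11605 windows of listed genes and 16.6% of all 32851. A match is a description of letters and not a binding site.

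Hexokinases trap glucose in the cell as glucose 6-phosphate. The ubiquitous Hk1 stood at 3.05, 0.17, 4.79, 4.17 and 2.28 in non-tuft libraries 1 to 5 and at 2.43, 5.86, 6.44, 6.32 and 5.57 in tuft libraries 1 to 5. It was above every non-tuft value in 4 of 5 tuft libraries, and tuft library 1 overlapped. The difference of 2.43 ± 0.92 (SE, n = 5 per group) did not pass (limma adjusted p = 0.112), with an interval of 0.46 to 4.41. With a library left out, the Hk1 difference ran from 1.75 to 3.16 and passed in 1 of 10 fits. That fit was without tuft library 1 (3.16, adjusted p = 0.0292), and in the others the adjusted p reached 0.236. The insulin- and hypoxia-responsive Hk2 was listed at 0.00 in 4 of 5 tuft libraries and at 1.38 in the other, and at 3.0, 0.17, 2.48, 1.37 and 1.80 in the non-tuft libraries. Its difference of -1.49 ± 0.54 did not pass (limma adjusted p = 0.101). The Hk2 difference passed in 1 of 10 fits with a library left out (without non-tuft library 2, -1.89, adjusted p = 0.0254). In the others the adjusted p reached 0.201. Within a library, Hk1 exceeded Hk2 by 5.05 ± 1.56 (SD, n = 5) in tuft cells and by 1.13 ± 1.33 in non-tuft cells, and these ranges overlapped.

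Phosphofructokinase catalyses the committed step of glycolysis and is built from liver (Pfkl), muscle (Pfkm) and platelet (Pfkp) subunits. Pfkp (chromosome 13, 6579014 to 6648023, NCBIM37, the build also named mm9) stood at 1.95, 3.51, 1.96, 1.53 and 3.48 in non-tuft libraries 1 to 5 and at 3.67, 5.81, 6.84, 5.85 and 6.88 in tuft libraries 1 to 5. The groups did not overlap, but tuft library 1 lay close to non-tuft libraries 2 and 5. Pfkp rose by 3.32 ± 0.65, a 10.0-fold difference on this scale (limma adjusted p = 0.00454, interval 1.93 to 4.72). In the 10 fits that each left out 1 library, the difference ran from 3.06 to 3.86 and the adjusted p from 0.00119 to 0.0172. None of the 50-base stretches of the Pfkp transcript was found elsewhere in the genome.

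The other phosphofructokinase subunits did not pass. Pfkl stood at 1.73, 2.43, 3.46, 1.33 and 2.53 in non-tuft libraries and at 2.83, 2.75, 3.0, 2.26 and 3.93 in tuft libraries, and the groups overlapped (difference 0.66 ± 0.48, limma adjusted p = 0.439). Pfkm stood at 2.98, 0.17, 3.45, 0.00 and 4.39 in non-tuft libraries, and in tuft cells it was listed at 0.00 in libraries 1 to 4 and at 2.96 in library 5 (difference -1.61 ± 0.90, limma adjusted p = 0.296, interval -3.54 to 0.33). Pfkp was the highest of the 3 subunits by mean in tuft cells, at 5.81 ± 1.30 (SD) beside 2.95 ± 0.61 for Pfkl and 0.59 ± 1.32 for Pfkm. In non-tuft cells the means were 2.49 ± 0.94, 2.30 ± 0.82 and 2.20 ± 2.00 and did not differ beyond their spread. Pfkl minus Pfkp within a library was -2.86 ± 1.19 in tuft cells and -0.19 ± 1.03 in non-tuft cells, with 1 tuft library (library 1, at -0.84) inside the non-tuft range of -1.09 to 1.50.

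Of the remaining upper glycolytic enzymes, aldolase A (Aldoa), which splits fructose 1,6-bisphosphate into triose phosphates, stood at 7.95, 7.71, 8.20, 7.97 and 8.38 in non-tuft libraries and at 8.46, 9.19, 10.02, 8.94 and 10.08 in tuft libraries. The groups did not overlap, although tuft library 1 and non-tuft library 5 were nearly level. The difference of 1.30 ± 0.41 missed the threshold (limma adjusted p = 0.0605, interval 0.41 to 2.19). It passed in 1 of 10 fits with a library left out (without tuft library 1, 1.52, adjusted p = 0.032) and in 6 of 9 other settings. Glucose phosphate isomerase (Gpi1) was at 7.42 ± 0.51 in tuft and 6.83 ± 0.90 in non-tuft cells, and triose phosphate isomerase (Tpi1), which interconverts the triose phosphates, at 5.35 ± 0.77 and 5.64 ± 0.53. The intervals of their differences were -0.45 to 1.64 and -1.27 to 0.71.

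None of the 5 enzymes of lower glycolysis passed, and their differences ran from -0.24 to 0.70. Enolase (Eno1) was at 6.16 ± 1.28 in tuft and 6.10 ± 0.66 in non-tuft cells, and the phosphoglycerate kinase Pgk1, which makes the first ATP of the pathway, at 5.23 ± 0.44 and 5.47 ± 0.75. Pyruvate kinase (Pkm), which makes pyruvate, was at 4.76 ± 0.82 and 4.06 ± 0.91 with an interval of -0.46 to 1.85. The phosphoglycerate mutase Pgam1 stood at 0.00 in tuft library 1 and 0.17 in non-tuft library 2. The other 8 libraries had Pgam1 at 3.19 to 4.41.

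Gapdh, which oxidises glyceraldehyde 3-phosphate and is often used as a reference gene, was listed at 0.00 to 2.67 in non-tuft and 0.00 to 2.14 in tuft libraries, far below its neighbours in the pathway. Of all 50-base stretches of the annotated Gapdh transcript, 85.6% were also found elsewhere in the genome, at 233 other loci. The shares were 92.9% for Pgk1, 91.9% for Pgam1, 72.2% for Eno1 and 41.4% for Pkm. They were 34.7% for Pdhb, 33.6% for Ldhb, 31.4% for Gpi1 and 23.6% for Tpi1. Reads were 50 bases long, and how reads with several matches were counted is not given in the sources used here, so the levels of these genes are uncertain. The part of these copies in the low Gapdh values was not tested.

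Lactate dehydrogenase is a tetramer of A subunits (Ldha), which favour the formation of lactate, and B subunits (Ldhb), which favour its oxidation. Ldha (chromosome 7, 54096845 to 54110997, NCBIM37) stood at 8.08, 6.96, 8.42, 8.12 and 8.70 in non-tuft libraries 1 to 5 and at 8.71, 10.08, 12.32, 9.76 and 12.14 in tuft libraries 1 to 5. The groups did not overlap, but tuft library 1 and non-tuft library 5 were almost level. Ldha rose by 2.55 ± 0.68, a 5.84-fold difference on this scale (limma adjusted p = 0.0262, interval 1.08 to 4.01). The call did not hold in every fit with a library left out: the difference ran from 2.12 to 3.02, and Ldha passed in 5 of 10 such fits. The adjusted p of Ldha was 0.0527 without non-tuft library 1, 0.0686 without non-tuft library 2 and 0.0522 without non-tuft library 4. It was 0.0718 without tuft library 3 and 0.0748 without tuft library 5. Over all genes, 1047 to 1358 passed in the fits with a library left out, beside 1428 with all libraries. Of the 50-base stretches of Ldha, 29.1% were also found elsewhere, at 15 other loci.

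Ldhb stood at 0.77, 0.17, 3.99, 3.97 and 3.65 in non-tuft libraries and at 1.34, 0.00, 1.65, 0.98 and 0.46 in tuft libraries. Non-tuft libraries 3 to 5 were above every tuft library and libraries 1 and 2 within the tuft range, and the difference of -1.62 ± 0.77 did not pass (limma adjusted p = 0.211, interval -3.28 to 0.04). Within each library Ldha exceeded Ldhb. The excess was 7.37, 10.08, 10.66, 8.79 and 11.68 in tuft libraries 1 to 5 and 7.31, 6.79, 4.43, 4.15 and 5.05 in non-tuft libraries, with no overlap but little distance between tuft library 1 and non-tuft library 1. Ldha alone also did not overlap, and Ldhb was at the library minimum in tuft library 2 and non-tuft library 2. This balance is a description of the libraries and was given no test.

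Ldha had the highest mean level of the members in tuft cells, while in non-tuft cells Ldha and Aldoa were level. Ldha made up 41.8% ± 17.4 (SD, n = 5) of the summed RPKM of the 35 members in tuft cells, from 23.2% to 61.6%, and 14.2% ± 3.19 in non-tuft cells, from 8.70% to 17.0%. The summed RPKM of the members was 1800 to 8280 in tuft libraries and 1420 to 2440 in non-tuft libraries. Tuft libraries 3 and 5 were the highest of the tuft libraries in 12 and 15 members, and tuft library 1 was the lowest in 18.

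These libraries also differed in other ways. The mean level of the 31 acinar markers was 7.87, 7.44, 5.72, 8.35 and 3.94 in tuft libraries 1 to 5, so libraries 3 and 5, with the highest Ldha, Aldoa and Pfkp, had the least acinar signal, and all non-tuft libraries lay between 10.06 and 11.30. The mean level of 78 ribosomal protein genes was 7.69, 7.26, 6.56, 7.37 and 6.69 in the tuft libraries and 7.70 to 8.18 in the non-tuft libraries. Among non-tuft libraries, 2 and 5, with the highest Pfkp, had the highest mean of the tuft markers, at 3.41 and 3.65, against 2.32, 0.36 and 0.13 in libraries 1, 3 and 4. The part of acinar transcripts, and of tuft cells within the non-tuft gate, in the differences of Pfkp, Ldha and Aldoa was not tested.

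**Figure D2:**
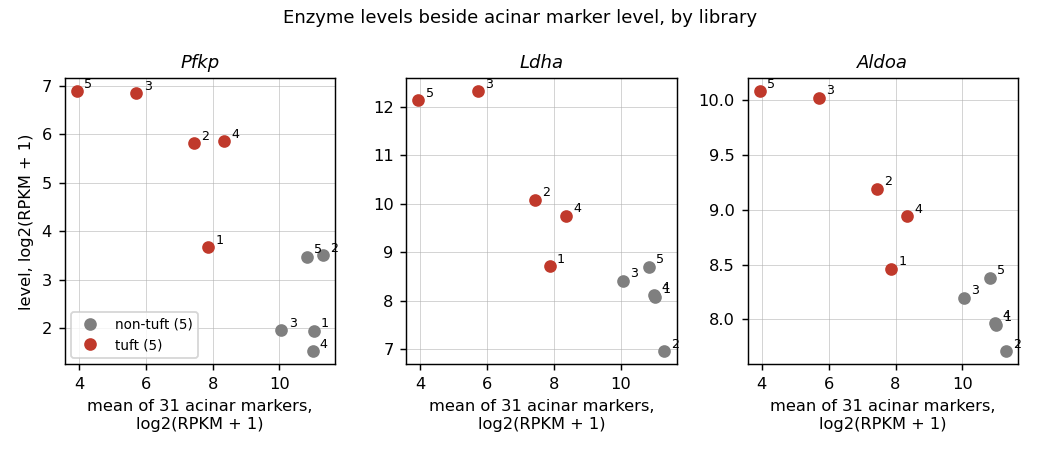
Level of Pfkp, Ldha and Aldoa (vertical axes, log2(RPKM + 1)) against the mean level of 31 acinar markers (horizontal axes) in 5 non-tuft (grey) and 5 tuft (red) libraries, numbered by replicate. Tuft libraries 3 and 5 have the highest level of each enzyme and the lowest acinar mean of the tuft group, at 5.72 and 3.94.

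Pyruvate enters the mitochondrial cycle through the pyruvate dehydrogenase complex or through pyruvate carboxylase, and none of these 5 members passed. The E1 subunits were nearly level between the groups: Pdha1 was at 6.22 ± 0.25 in tuft and 6.30 ± 0.20 in non-tuft cells, and Pdhb at 5.59 ± 0.38 and 5.59 ± 0.45. Their differences of -0.07 and 0.01 had intervals of -0.81 to 0.66 and -0.82 to 0.83, which leaves room for less than a 2-fold difference. The acetyltransferase Dlat and the dehydrogenase Dld, which pyruvate dehydrogenase shares with oxoglutarate dehydrogenase, differed by -0.08 and 0.02 with wider intervals of -1.62 to 1.46 and -1.45 to 1.49. Pyruvate carboxylase (Pcx), which makes oxaloacetate, was listed at 0.00 in tuft libraries 2 and 4 and at 2.38 to 4.28 in the other tuft libraries (difference -1.17 ± 0.82, limma adjusted p = 0.416).

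In the stretch of the cycle from citrate to succinyl-CoA, none of 6 members passed. Citrate synthase (Cs), which condenses acetyl-CoA with oxaloacetate, was at 5.35 ± 0.69 in tuft and 5.37 ± 0.37 in non-tuft cells, with an interval of -0.93 to 0.89. The 3 subunits of NAD isocitrate dehydrogenase differed by -0.74 (Idh3a), 0.35 (Idh3b) and -0.52 (Idh3g). The oxoglutarate dehydrogenase subunits Ogdh and Dlst differed by 0.45 and -0.39. All 6 intervals lay within 2 log2 units of 0.

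In the stretch from succinyl-CoA to oxaloacetate, succinyl-CoA ligase joins a shared alpha subunit (Suclg1) to a beta subunit that is either ADP-forming (Sucla2) or GDP-forming (Suclg2). Suclg1 was level, at 7.03 ± 0.35 in tuft and 7.03 ± 0.29 in non-tuft cells, with an interval of -0.78 to 0.77. Suclg2 stood at 4.18, 3.72, 3.02, 3.58 and 3.29 in non-tuft libraries and at 1.80, 2.63, 2.65, 2.41 and 2.50 in tuft libraries, below every non-tuft library. The difference of -1.16 ± 0.38 missed the threshold (limma adjusted p = 0.0655, interval -1.97 to -0.35). It passed in 1 of 10 fits with a library left out (without non-tuft library 3, -1.29, adjusted p = 0.0462) and in 2 of 9 other settings. Of its 50-base stretches, 37.7% were also found elsewhere, at 4 other loci.

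Sucla2 stood at 3.71, 3.95, 4.52, 1.75 and 4.72 in non-tuft libraries and at 4.38, 4.61, 4.82, 4.69 and 5.21 in tuft libraries, with overlap (difference 1.01 ± 0.53, limma adjusted p = 0.264). Suclg2 minus Sucla2 was -2.58, -1.98, -2.17, -2.28 and -2.71 in tuft libraries 1 to 5, a spread of 0.30 (SD). In non-tuft libraries it was 0.46, -0.22, -1.50, 1.83 and -1.43, so the ADP-forming subunit led in every tuft library and in 3 of 5 non-tuft libraries. The groups did not overlap in this balance, as they did not for Suclg2 alone. Fumarase (Fh1) was at 3.16 ± 0.31 and 3.98 ± 0.70 (interval -1.73 to 0.08), and mitochondrial malate dehydrogenase (Mdh2) at 6.22 ± 0.46 and 5.94 ± 0.27 (interval -0.53 to 1.07).

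The counterparts outside the NAD-linked cycle did not pass either. Cytosolic malate dehydrogenase (Mdh1), a part of the malate-aspartate shuttle that moves NADH electrons into mitochondria, was the member with the third highest mean in both groups, at 8.52 ± 0.45 in tuft and 7.76 ± 0.26 in non-tuft cells (difference 0.76 ± 0.37, limma adjusted p = 0.223). The mitochondrial NADP isocitrate dehydrogenase Idh2 was at 5.26 ± 0.63 and 6.32 ± 0.60 (difference -1.05 ± 0.44, limma adjusted p = 0.157, interval -2.01 to -0.10). Its cytosolic counterpart Idh1 and the cytosolic aconitase Aco1, which also acts as an iron regulatory protein, differed by -0.36 and -0.41. Idh1 minus Idh2 overlapped between the groups, at 0.03 ± 0.81 and -0.66 ± 0.52, as did Mdh1 minus Mdh2, at 2.30 ± 0.45 and 1.82 ± 0.42.

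**Figure D3:**
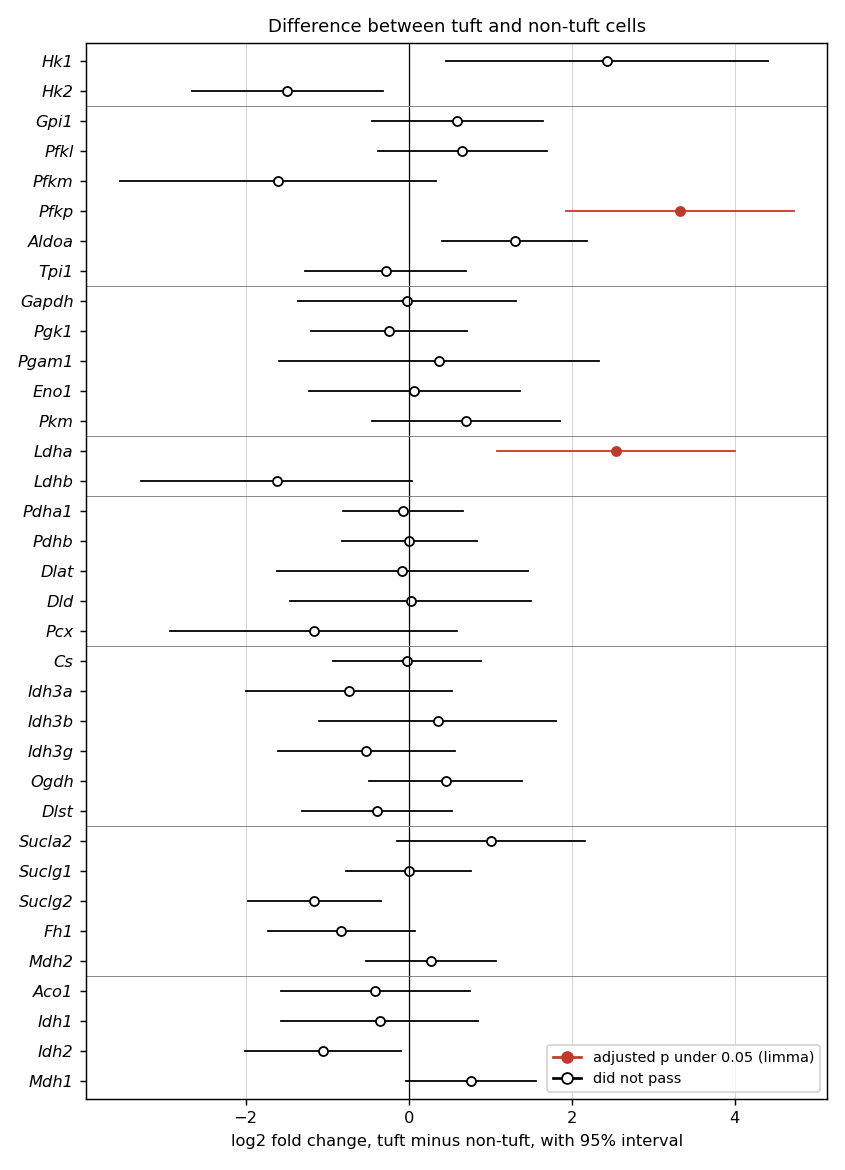
Difference between tuft and non-tuft cells for the 35 members, as log2 fold change with its 95% interval, in pathway order. The 2 members that passed (red) are Pfkp at 3.32 and Ldha at 2.55, and the 11 citrate cycle members from Cs to Mdh2 have a median of -0.02.

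The order of abundance was alike in its upper ranks. Ldha, Aldoa and Mdh1 had the highest means in both groups, and in non-tuft cells Ldha and Aldoa were level at 8.06 ± 0.66 and 8.04 ± 0.26. In tuft cells Ldha at 10.60 ± 1.57 stood above Aldoa at 9.34 ± 0.70 by less than its SD between libraries. Within a library, Ldha was above Aldoa in every tuft library and in every non-tuft library except library 2. The 11 members of the cycle from Cs to Mdh2 had a median difference of -0.02, and the 15 members of glycolysis and lactate dehydrogenase one of 0.37. Whether these medians differ was not tested.

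**Figure D4:**
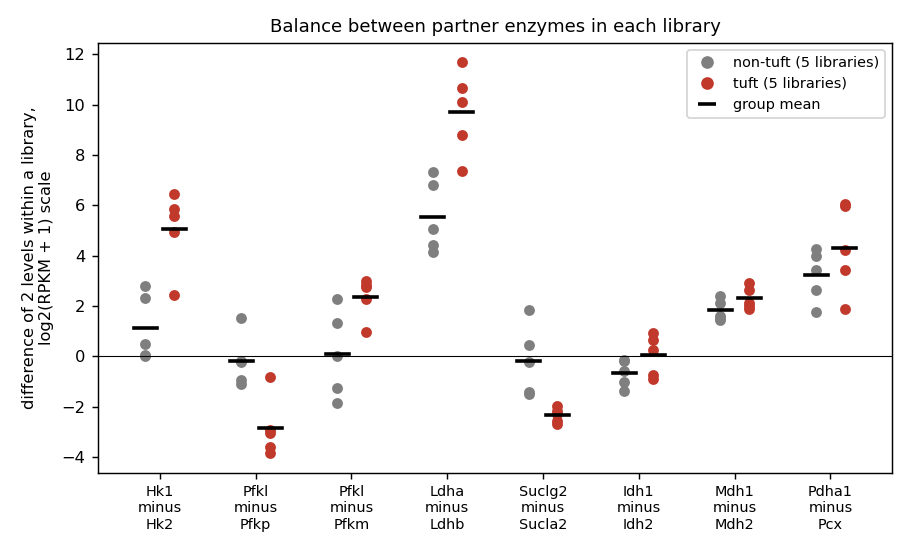
Difference between the levels of 2 partner enzymes within each library (log2(RPKM + 1) scale) for 8 pairs, in 5 non-tuft (grey) and 5 tuft (red) libraries, with group means as bars. Ldha minus Ldhb and Suclg2 minus Sucla2 do not overlap between the groups, and the other 6 pairs do. Ldha and Suclg2 also do not overlap on their own, and the share of pairs without overlap among all genes was not computed.

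The other genes of glucose use were taken from 8 lists of 117 genes, written from pathway knowledge with earlier results of these data known. Of these, 98 were listed, 11 rose and 9 fell, so 20.4% passed beside 11.7% of all genes, with a median difference of 0.07. Because of how the lists arose, the gap between these shares does not show that genes of glucose use differ more than others. With each library left out in turn, 13 of the 20 passed in all 10 fits. The other 7 passed in fewer: Me3 in 4, Galm, Slc25a13 and Slc2a12 in 3, and Me2, Slc2a1 and Tigar in 2, with adjusted p up to 0.101 (Galm). After centring on ribosomal protein genes, Tigar, Galm, Me3, Slc25a13, Glud1 and Txnip stayed lower but no longer passed (limma adjusted p = 0.0775 to 0.245).

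In the list of further glycolytic genes, 4 of 19 rose and 2 fell. Bpgm, which makes and degrades 2,3-bisphosphoglycerate beside the main path, stood at 5.24, 5.48, 5.59, 1.99 and 6.80 in non-tuft libraries and at 8.06, 8.08, 10.36, 8.42 and 10.24 in tuft libraries, with no overlap. Bpgm rose by 4.01 ± 0.82 (limma adjusted p = 0.00586). Pgm2l1, a glucose 1,6-bisphosphate synthase, was at 5.23 ± 0.57 in tuft and 1.89 ± 0.61 in non-tuft cells and rose by 3.35 (limma adjusted p = 0.000306). Pklr, the pyruvate kinase of liver and red cells, rose by 2.94 to 3.66 ± 0.87, and Pfkfb3, which makes the phosphofructokinase activator fructose 2,6-bisphosphate, rose by 2.85 to 4.83 ± 1.12 (limma adjusted p = 0.00224 and 0.0106). Tigar, which degrades that activator, fell by 1.81 and was at the lowest value in 4 of 5 tuft libraries (limma adjusted p = 0.0302, and 0.0527 with the replicate number as a block), and the mutarotase Galm fell by 2.08 (limma adjusted p = 0.039).

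Among 6 listed gluconeogenic genes, Fbp2, the muscle fructose 1,6-bisphosphatase that opposes phosphofructokinase, stood at 2.39, 0.17, 2.88, 3.79 and 2.14 in non-tuft libraries and at 6.70, 7.22, 7.37, 6.79 and 6.65 in tuft libraries. Every tuft library was above every non-tuft library, and Fbp2 rose by 4.68 ± 0.58 (limma adjusted p = 0.000207). The other 5 did not pass, Fbp1 among them (difference 0.14 ± 0.92, limma adjusted p = 0.948).

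Of 19 listed carriers, 4 rose and 3 fell. The glucose transporters Slc2a1, Slc2a10 and Slc2a12 rose by 2.32, 2.25 and 2.54 (limma adjusted p = 0.0334, 0.00579 and 0.0327), and Slc2a1, the widely expressed GLUT1, was at 4.01 ± 0.38 in tuft and 1.68 ± 1.56 in non-tuft cells. Slc2a5, a fructose transporter, stood at 2.68, 2.93, 3.41, 3.35 and 3.02 in non-tuft libraries and was listed at 0.00 in every tuft library. The sodium-glucose cotransporter Slc5a1 was likewise listed at 0.00 in every tuft library and at 2.27 to 5.87 in non-tuft libraries. Both fell (limma adjusted p = 8.4e-05 and 0.00101). Of the mitochondrial aspartate-glutamate carriers, Slc25a12 rose by 1.98 (limma adjusted p = 0.00815) and Slc25a13 fell by 1.68 (limma adjusted p = 0.0334, and 0.0576 with the replicate number as a block). The pyruvate carrier subunits Mpc1 and Mpc2 and the lactate carrier Slc16a1 with its chaperone Bsg did not pass, with differences of 0.93, 0.69, -0.69 and 0.36.

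Of 11 further citrate cycle genes, the mitochondrial malic enzyme Me2 rose by 2.12 to 6.53 ± 0.36, and its NADP-dependent counterpart Me3 fell and was listed at 0.00 in every tuft library beside 0.28 to 3.85 in non-tuft libraries (limma adjusted p = 0.0318 and 0.0271). The succinate dehydrogenase subunits Sdha, Sdhb, Sdhc and Sdhd differed by 0.51, 0.80, -0.08 and 0.27. None of these passed. Sdhb did not overlap between the groups, at 6.76 to 7.18 in non-tuft and 7.64 to 7.94 in tuft libraries (limma adjusted p = 0.153). It passed in 0 of 10 fits with a library left out and in 3 of 9 other settings. None of 9 further genes of the pyruvate dehydrogenase list passed, and its kinases Pdk1, Pdk2, Pdk3 and Pdk4 differed by 0.61, 0.85, 0.08 and -1.03.

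The pentose phosphate list held 11 genes, of which the phosphoribosyl pyrophosphate synthetase Prps2 fell by 3.53 (limma adjusted p = 0.0014). The oxidative enzymes G6pdx and Pgd differed by 0.36 and 1.38 and did not pass. Of 8 listed genes of NADH shuttles and anaplerosis, glutamate dehydrogenase (Glud1) fell by 1.54 to 4.51 ± 0.43 (limma adjusted p = 0.0181). Of 15 regulators, the oxygen-sensing prolyl hydroxylase Egln3, itself a hypoxia-induced gene, rose by 2.63, and Txnip, a glucose-induced inhibitor of glucose uptake, fell by 1.97 to 3.95 ± 0.29 (limma adjusted p = 0.00423 and 0.00342). Hif1a, which encodes the oxygen-regulated factor that binds hypoxia response elements, was at 3.25 ± 0.21 in tuft and 3.13 ± 0.38 in non-tuft cells (difference 0.12, limma adjusted p = 0.868). Of the genes in these paragraphs, Galm, Slc2a1, Slc25a13 and those that did not pass were named after their values were seen.

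**Figure D5:**
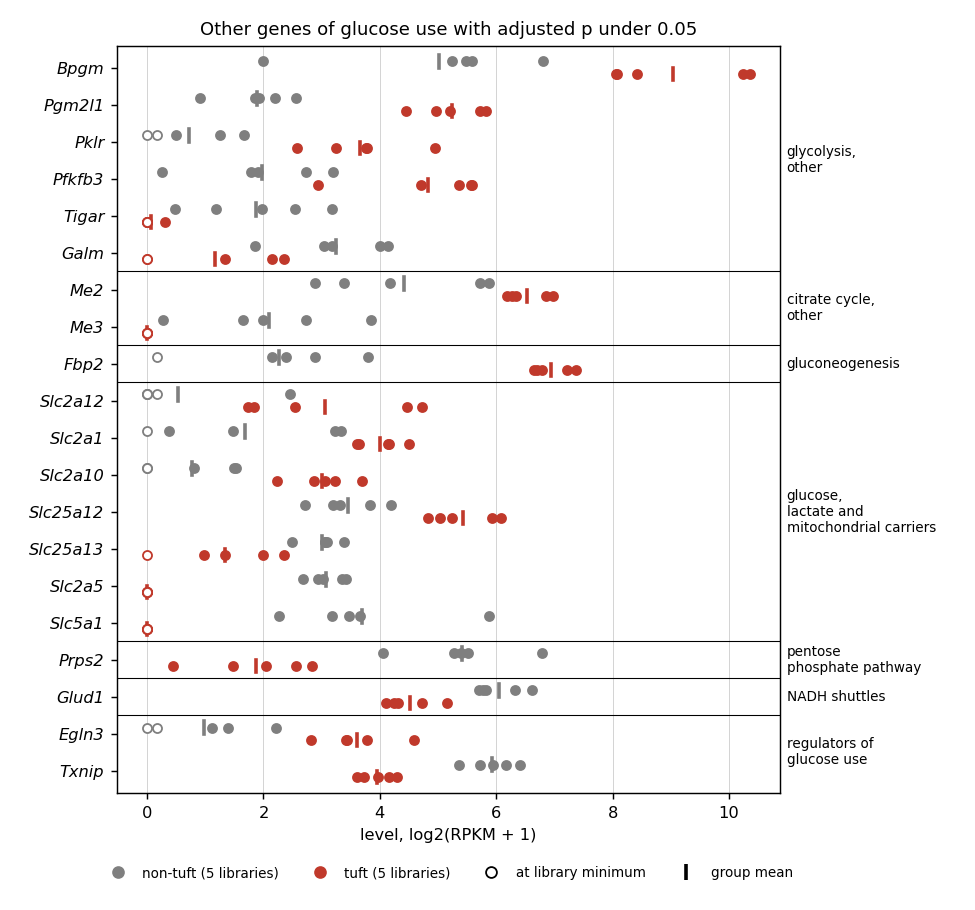
Level of the 20 genes outside the 35 members that passed, by list, on the log2(RPKM + 1) scale in 5 non-tuft (grey) and 5 tuft (red) libraries, with group means as vertical ticks and open points at the lowest value of a library. Slc2a5, Slc5a1 and Me3 are open at 0.00 in every tuft library, and Fbp2 and Bpgm lie highest above the non-tuft group.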

How the data were processed

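Messenger RNA was measured in 5 tuft and 5 non-tuft libraries. The authors mapped 50-base single-end reads to mm9 with HISAT2, obtained RPKM per gene with StringTie, removed genes of low RPKM variance, took log2(RPKM + 1) and quantile normalized the libraries. Tool versions and the gene annotation are not given in the sources used here. These deposited log2 values were used as they stand. Quantile normalization gives every library the same distribution, so a change shared by all genes is not seen, and genes removed by the variance filter are not analysed here. The authors' own fold change, p-value and false discovery rate stand in the same table and were not used.

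The comparison used limma (version 3.58.1, under R 4.3.3) with its default empirical Bayes moderation and no covariate, fitted to all 12160 genes, and p-values were adjusted by Benjamini-Hochberg. The fit was tested on simulated data. Summaries were made in Python 3.11.15 with pandas 2.3.3, and figures with matplotlib 3.10.9. Transcripts of NCBIM37 were cut into every 50-base window and searched for in the genome on both strands. Loci over 10000 bases apart were counted separately.

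The members and lists were chosen with earlier results of these data known. All members are named, and those that passed and their isozyme partners have every library value. Of each other list the genes that passed are named, at most the 5 with the smallest p, unless stated. A few genes of the lists are not reported here. Other added constants, a filter on low values, centring on ribosomal protein genes, other variance estimates, library weights, a replicate block and leaving out libraries were tried as alternatives.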

Additional observations from a re-analysis of the deposited data

Results flagged for a closer look

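Each named gene gave 1 set of 5 libraries per group. Leaving out 4 sets in which all values were equal, 138 sets remained, and 12 had a library whose gap to the nearest other was over 0.71 of the range. This is 8.70%, where chance gives about 5.00% for values with no ties. In 3 of the 12 the other 4 libraries shared the lowest value, so that any higher value exceeds the limit, and the 2 percentages cannot be compared directly. In tuft library 1, Hk1 stood at 2.43 beside 5.57 to 6.44 in the other tuft libraries, Pgam1 at 0.00 beside 3.44 to 4.41, and Suclg2 at 1.80 beside 2.41 to 2.65. Hk2 stood at 1.38 in tuft library 4 and Pfkm at 2.96 in tuft library 5, and both were listed at 0.00 in the other tuft libraries. Tigar stood at 0.31 in tuft library 5 and at 0.00 in the others. In non-tuft libraries, Gapdh stood at 2.67 in library 4 beside 0.00 to 0.59, Pgam1 at 0.17 in library 2 beside 3.19 to 4.16, and Slc2a12 at 2.45 in library 3 beside 0.00 to 0.17. Of genes that did not pass, Pdk3 stood at 1.48 in tuft library 2 beside 3.26 to 3.80, Slc16a1 at 0.00 in non-tuft library 4 beside 2.58 to 3.11, and Bsg at 5.00 in tuft library 1 beside 5.46 to 5.61. No library of either group was flagged for Pfkp, Ldha or Aldoa.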

How the results depend on the processing

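Over 19 alternatives to the fit, Pfkp passed in every one. Ldha passed in 5 of 10 fits with a library left out and in 8 of 9 other settings (with 0.1 added in place of 1, adjusted p = 0.0582). The number of members that passed was 1 with 0.1 added, 4 with 10 added, 4 among genes with a mean of at least 2, 5 after centring on ribosomal protein genes, 4 with array weights, and 4 without both non-tuft library 2 and tuft library 1, an alternative chosen after seeing the data. With a library left out it ran from 1 to 4, and members called from 1 to 3. Members called were 1 with 0.1 added and 4 after ribosomal centring. Over all genes, 278 were called with 10 added, which shrinks low differences by construction. Ribosomal centring passed 2583 genes and called 1549, beside 1428 and 1010 otherwise, and moved the member median to 0.80. With a library left out, 1047 to 1358 genes passed, 841 to 1010 were called, and the member median ran from -0.18 to 0.11. Apart from the centring, the cause of these changes was not tested.

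Member differences of at most 0.74 in size changed sign in 58 instances, with adjusted p of at least 0.209 in each. Of these, 12 came with ribosomal centring, which moved the median of all genes to 0.84: Tpi1 (0.53), Gapdh (0.79), Pgk1 (0.58), Pdha1 (0.74), Dlat (0.74), Cs (0.80), Idh3a (0.079), Idh3g (0.29), Dlst (0.43), Suclg1 (0.81), Aco1 (0.41) and Idh1 (0.46), and outside the members Sdhc (0.73) and Slc16a1 (0.12). Dlat (0.29) and Fbp1 (-0.29) changed sign with 0.1 added, Dld (-0.10) and Pdk3 (-0.19) with 10 added, and Gapdh (0.009) with every library minimum at 0. With array weights they were Dld (-0.055), Cs (0.11), Suclg1 (0.15) and Pdk3 (-0.029), and without both named libraries Dld (-0.22), Cs (0.049), Suclg1 (0.17) and Pdk3 (-0.67). With a library left out, the differences ran from -0.23 to 0.55 for Eno1, -0.15 to 0.13 for Pdhb, -0.76 to 0.26 for Dlat, -0.071 to 0.87 for Idh3b, -0.094 to 0.11 for Suclg1, -0.31 to 1.18 for Pgam1 and -0.45 to 0.37 for Dld. They ran from -0.17 to 0.01 for Pdha1, -0.37 to 0.44 for Gapdh, -0.17 to 0.19 for Cs, -0.47 to 0.025 for Tpi1, -0.65 to 0.04 for Idh1, -0.63 to 0.70 for Pdk3, -0.28 to 0.76 for G6pdx, -0.23 to 0.047 for Sdhc, -0.013 to 0.24 for Hif1a and -0.39 to 0.67 for Fbp1.

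The labels do not say that a number marks a mouse, so the main fit did not take the numbers as pairs. The study sorted both kinds of cell from 5 mice, and same-numbered libraries deviated together with correlations of 0.0619 to 0.24. For tuft libraries 2, 4 and 5 the non-tuft library with the highest correlation had the same number. For non-tuft libraries 1, 3, 4 and 5 the best tuft library had the same number. Pairing by mouse is therefore possible, and the fit with a replicate block allows for it. With a replicate block, 1406 genes passed and 1009 were called, and 2 members passed, Pfkp and Ldha, with a member median of -0.02. Of the other named genes that passed, Tigar (adjusted p = 0.0527) and Slc25a13 (adjusted p = 0.0576) did not pass with the block. Depth is unknown, so a gene listed at the minimum of a library is not shown to be absent.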
